A study of Mus musculus with 24 samples.

Results

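The genes described here are 10 core components of the circadian clock, Per1, Per2, Per3, Cry1, Cry2, Arntl, Clock, Nr1d1, Nr1d2 and Dbp. They were chosen by symbol, and all 10 were found among the 14074 genes of the normalized count table. RNA-seq was carried out on the prefrontal cortex (PFC) of 24 adult male C57BL/6 mice, 1 library per mouse, in 6 groups of 4. Control mice had no social defeat and were housed alone for some days beforehand, and stressed mice went through 30 days of chronic social defeat by aggressive males. Stressed mice were split by their behaviour towards another male into a passive coping (PS) and an active coping (AS) phenotype, so the phenotype was observed and not assigned. Within each of the 3 phenotypes, 4 mice received saline and 4 received dexamethasone (DEX, a synthetic glucocorticoid) at 2 mg/kg by intraperitoneal injection, and the tissue was collected 6 h later. Injections were given in the morning, soon after the lights came on, so that all 24 mice were sampled at a single phase of the light period and no value below describes a rhythm.

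The mammalian clock is a loop of transcription and feedback that runs in most cells. ARNTL (also called BMAL1) and CLOCK form an activator that binds E-box elements and switches on the Period (Per) and Cryptochrome (Cry) genes, whose proteins return to the nucleus and inhibit that activator. A second loop is formed by NR1D1 and NR1D2 (the REV-ERB nuclear receptors), which repress Arntl and Clock through ROR elements, and DBP is a PAR bZIP activator that is driven by the loop and acts on D-box elements. Glucocorticoids are a signal that sets the clocks of peripheral tissues and of brain regions outside the suprachiasmatic nucleus, and Per1 is known as a target of the glucocorticoid receptor.

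In mm10 coordinates of the deposited annotation, Per1 lies at chr11:69095217-69109960 on the plus strand and Dbp at chr7:45705088-45710203 on the plus strand. The other members are Per2 at chr1:91415982-91459324 (minus), Per3 at chr4:151003652-151044665 (minus), Cry1 at chr10:85131700-85185064 (minus), Cry2 at chr2:92403646-92434043 (minus), Arntl at chr7:113207465-113314126 (plus), Clock at chr5:76209868-76304792 (minus), Nr1d1 at chr11:98767932-98775333 (minus) and Nr1d2 at chr14:18204054-18239127 (minus). All are protein-coding, and their values are sums over exons. Dbp shares 539 exon bases (18.0% of its exon length) with Sphk2 on the opposite strand, and Nr1d1 shares 263 bases (8.55%) with Thra on the opposite strand.

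Promoter windows from 250 bases before to 50 bases after the start of transcription were taken from RefSeq (GRCm38.p6) for 9 of the 10 members, 13 windows in all, and no window was used for Per2. The 250 bases before the start are printed for a window of Per1, Per3 and Cry1 each, because these hold letters of the E-box or the D-box. Whether the matches are bound was not tested. Capitals mark the E-box (CACGTG), the D-box (TTATGNAA) and the core of the ROR element (AGGTCA), searched on both strands. None of the matches overlap. The bases before the ROR core were not searched, so a match is not a full ROR element.
Per1, chr11:69098699-69098948, plus strand: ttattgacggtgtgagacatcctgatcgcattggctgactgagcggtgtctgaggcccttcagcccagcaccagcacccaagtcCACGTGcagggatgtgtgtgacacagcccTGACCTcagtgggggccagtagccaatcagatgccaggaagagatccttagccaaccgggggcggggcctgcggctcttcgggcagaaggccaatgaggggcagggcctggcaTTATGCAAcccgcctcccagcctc
Per3, chr4:151044666-151044915, minus strand: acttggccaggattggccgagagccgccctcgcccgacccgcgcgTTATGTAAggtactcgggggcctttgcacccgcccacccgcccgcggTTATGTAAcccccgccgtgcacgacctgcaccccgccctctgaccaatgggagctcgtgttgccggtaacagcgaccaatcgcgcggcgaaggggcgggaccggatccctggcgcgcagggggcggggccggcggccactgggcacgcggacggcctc
Cry1, chr10:85185055-85185304, minus strand: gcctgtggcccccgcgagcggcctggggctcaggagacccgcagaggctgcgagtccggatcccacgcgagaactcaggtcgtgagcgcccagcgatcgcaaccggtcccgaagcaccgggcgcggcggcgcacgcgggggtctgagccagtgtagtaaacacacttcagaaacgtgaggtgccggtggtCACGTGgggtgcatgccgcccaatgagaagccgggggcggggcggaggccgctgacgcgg
In the printed Per1 window the E-box begins 166 bases before the start, the ROR core 137 bases and the D-box 24 bases before it. Another Per1 window (chr11:69099902-69100201) held none of these letters, and both lie inside the annotated span of the gene. Per3 has a pair of D-boxes, 205 and 158 bases before the start, and the E-box of Cry1 begins 60 bases before it. Arntl, Clock and Nr1d2 each have 1 ROR core in a window. The Dbp window (chr7:45704997-45705296) held none of these letters, which says nothing about elements elsewhere in the gene. Over all 32851 RefSeq windows of this length, 7.15% hold the E-box, 3.38% the D-box and 16.3% the ROR core. A glucocorticoid response element written as ACANNNTGT (6.85% of all windows) and a cAMP response element written as TGACGTCA (1.79%) were in 0 of the 13 windows.

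The libraries held 21121869 to 59439645 reads on genes, and each member had at least 306 reads in each library. Depth differed between groups, with medians of 34242531.5 and 37876626 reads in saline-treated and DEX-treated AS mice. In the control and PS groups the medians were 22869703 to 24187702. For the lowest member, Cry1, and for the least variable groups of Cry2, counting error is a large share of the spread between mice. The DEX label was checked with 3 induced genes. Fkbp5, Tsc22d3 and Sgk1 were higher after DEX in each phenotype with no overlap between groups, and the log2 change of Fkbp5 was 2.26 in controls, 2.00 in PS and 1.91 in AS mice (limma, adjusted p = 9.31e-13, 1.35e-11 and 3.79e-11). All 7 markers of cortical glutamatergic neurons were present, and of 5 listed markers of the suprachiasmatic nucleus, Vip and Avp, which cortical cells or other regions also express, were among the genes in the table and Six6, Lhx1 and Prok2 were not. Vip and Avp summed to 1223 to 2087 normalized counts over the 24 libraries, nearly all of it Vip, and Vip rose after DEX in controls (0.30 ± 0.10, limma adjusted p = 0.0771) and in PS against control mice after saline (0.37 ± 0.10, adjusted p = 0.0735). Olfactory bulb genes (Doc2g, Ms4a15 and Frmd7) summed to 517 to 1660 normalized counts in 5 libraries (control-saline mouse 117, control-DEX mouse 122, PS-saline mouse 2, PS-DEX mouse 34 and AS-saline mouse 14) and to 27.0 to 208 in the other 19. In bulk tissue, fewer cells of a type and less RNA per cell cannot be told apart.

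Per kilobase of exon, the 10 members were spread over a wide range of levels, and their order was almost the same in the 6 groups. In saline-treated controls, Nr1d1 was the highest at 1822 ± 146 normalized counts per kb (SD, n = 4), followed by Dbp at 1311 ± 119, Cry2 at 749 ± 40.2, Per1 at 659 ± 35.3 and Nr1d2 at 530.3 ± 37.3. Each of these 5 stood clear of its neighbour in that group. Per2 (227 ± 26.7) and Per3 (206 ± 22.3) overlapped each other, Per3 overlapped Clock (170.5 ± 26.5), and Cry1 (130.2 ± 14.2) overlapped Arntl (119.5 ± 14.6). The order differed only at its end, where Arntl stood above Cry1 in the DEX-treated PS and AS mice. Cry2 had the lowest median coefficient of variation between mice of a group, 3.96% over the 6 groups with a range of 1.90% to 7.98%, and the widest single value was 23.8%, for Nr1d1 in DEX-treated AS mice.

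**Figure D1:**
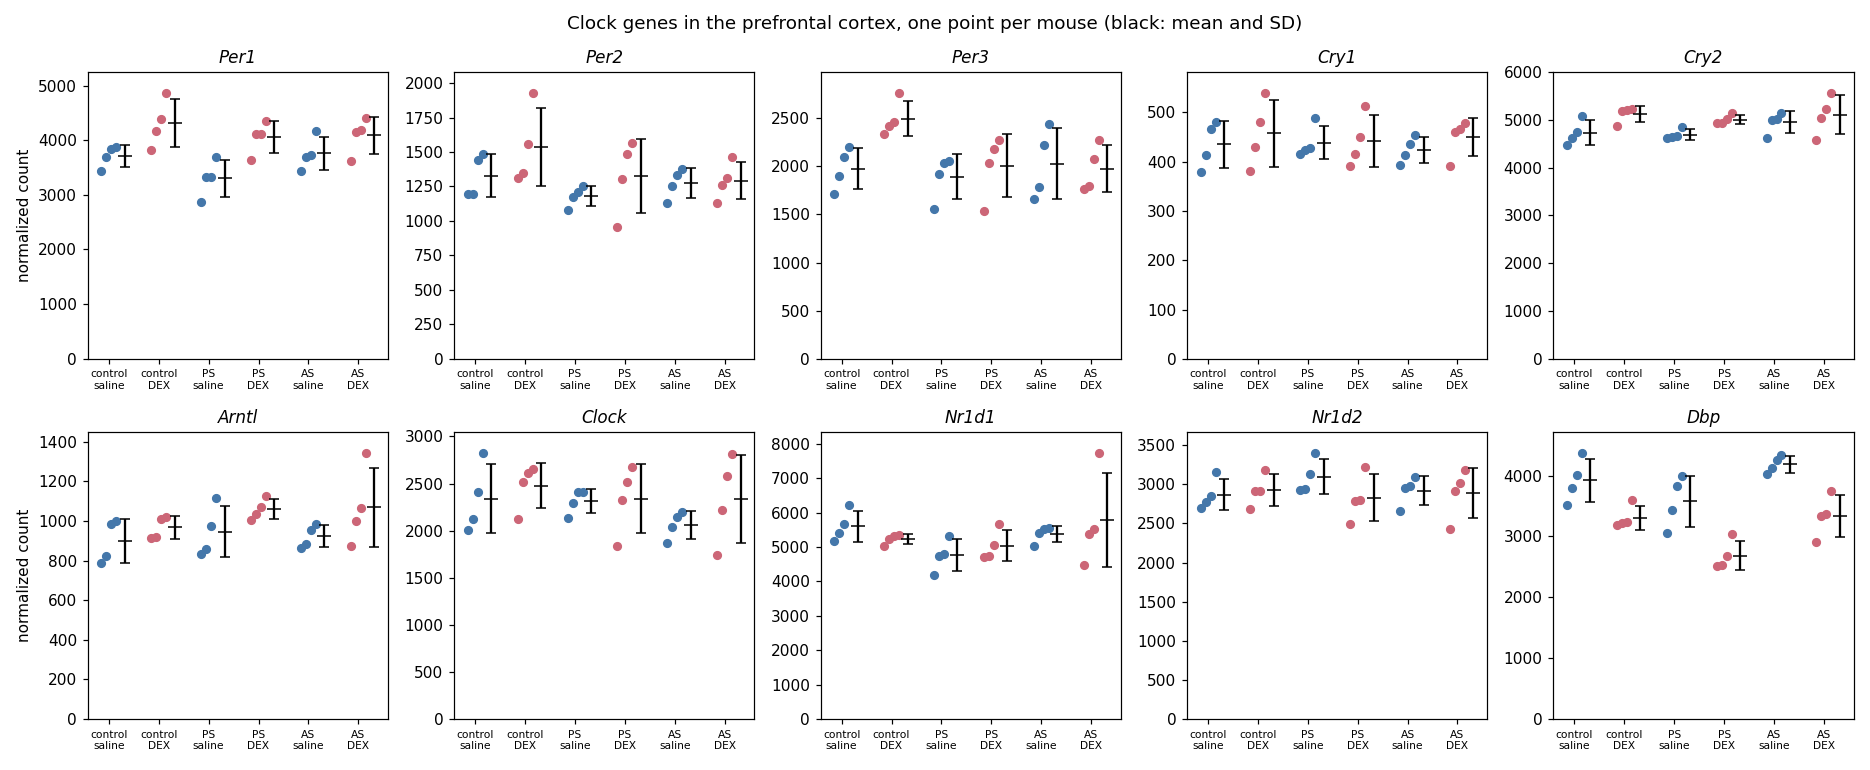
Normalized counts of the 10 clock genes (vertical axes from 0) in the 6 groups, one point per mouse in rising order within a group, with blue for saline, red for DEX and black marks for the mean and SD of 4 mice. The DEX points of Dbp lie below the saline points of the same phenotype in PS and AS mice, while most other panels show overlapping groups.

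The first question was how these genes stood 6 h after DEX. Dbp fell in PS and AS mice and on the mean of the 3 phenotypes, Per1 rose in PS mice and on that mean, and no other member passed the test within a phenotype. Genes were called at a Benjamini-Hochberg adjusted p below 0.1 in limma over all 14074 genes. In controls 0 of the 10 members were called, beside 6.49% of all genes. An unadjusted p below 0.05 was reached there by 4 members (Per1, Per3, Cry2 and Dbp), beside 2154 of the 14074 genes. edgeR also called 0 there, and DESeq2 called 1, Dbp. In PS mice 2 of 10 were called, beside 5.36% of all genes, with 1 that rose (2.74% of all genes rose) and 1 that fell (2.62% fell). In AS mice 1 of 10 was called, beside 8.77% of all genes (4.95% fell), so that the count itself lies near the background. On the mean over the 3 phenotypes, 2 of 10 rose (7.46% of all genes) and 1 fell (8.01%), 3 in all beside 15.5% of all genes. Median log2 changes of the 10 members were 0.10, 0.08 and 0.06 in control, PS and AS mice, and the medians of all genes were -0.0088, -0.0026 and 0.0024.

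Dbp encodes the D-box activator at the output of the loop. In PS mice, Dbp was at 3060.0, 3430.0, 3836 and 3992 normalized counts after saline and at 2509, 2523, 2677 and 3039 after DEX. In AS mice it was at 4022, 4124, 4253 and 4333 after saline and at 2902, 3344, 3375 and 3745 after DEX. In control mice it was at 3525, 3793, 4015 and 4365 after saline and at 3181, 3216, 3243 and 3603 after DEX. The 4 DEX values therefore lay below all 4 saline values in both stressed phenotypes, and in controls only mouse 101 (3603) reached above the lowest saline mouse. The means after saline were 3580 ± 420 in PS, 4183 ± 138 in AS and 3925 ± 356 in control mice (SD, n = 4 each).

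The change of Dbp on the log2 scale was -0.41 ± 0.09 (SE) in PS (0.752-fold, limma adjusted p = 0.0048), -0.33 ± 0.09 in AS (0.796-fold, adjusted p = 0.0213) and -0.24 ± 0.09 in controls (0.845-fold, adjusted p = 0.123). On the mean of the 3 phenotypes it was -0.33 ± 0.05 (adjusted p = 3.65e-05), and that call was kept with every other scaling, filter, count test and covariate tried and with any 1 library left out. The call in AS was lost without DEX-treated mouse 42 (adjusted p = 0.110). In controls the change was called without any one of 5 libraries (control-saline mouse 109, PS-saline mouse 68, PS-DEX mouse 34, and AS-DEX mice 42 and 60, adjusted p 0.0761 to 0.0983) and with DESeq2 (adjusted p = 0.0935). Sphk2, which overlaps Dbp on the other strand, moved the other way on the mean of the phenotypes (0.12 ± 0.04, adjusted p = 0.0864).

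Some marker lists of other cells and tissues also differed after DEX, the microglia and endothelial sums downward in stressed mice and the striatum sum upward. The summed level of 6 microglia markers was 8823 to 9469 after saline and 7613 to 7972 after DEX in PS mice, and 9531 to 10250 against 7676 to 8771 in AS mice, while the control groups overlapped (7907 to 9044 and 7898 to 10020). P2ry12 and Cx3cr1 were the 2 of these 6 genes that fell in PS and in AS mice, and P2ry12 also fell in controls. With this sum as a covariate, chosen after seeing the data, Dbp was no longer called in PS (-0.24, adjusted p = 0.295) or AS (-0.14, adjusted p = 0.738), and it was called in controls (-0.30, adjusted p = 0.0389) and on the mean (-0.23, adjusted p = 0.0269). The 7 endothelial markers summed to 3737 to 6104 after saline and 2394 to 3612 after DEX in AS mice, where 5 of 7 fell, and with that covariate Dbp had an adjusted p of 0.106 in AS. The 4 striatum markers in the table (of 6, Drd2 and Adora2a were not among its genes) summed to 3280 to 4008 after saline and 4189 to 4998 after DEX in controls, 3121 to 3823 and 3930 to 4481 in PS mice, and 3386 to 3961 and 4364 to 5839 in AS mice. With that sum as a covariate the change of Dbp was larger and called in all 3 phenotypes, at -0.41 in controls (adjusted p = 0.0384), -0.54 in PS (adjusted p = 0.00113) and -0.54 in AS (adjusted p = 0.00577), and it was -0.49 on the mean (adjusted p = 0.000362). The striatum sum did not overlap between saline and DEX mice in any phenotype. Nor did the microglia sum in PS and AS mice or the endothelial sum in AS mice. As a covariate, such a sum takes up part of the DEX difference, here and below. A call lost or gained with it therefore cannot tell cell content from treatment. What these cells contribute to the change of Dbp was not tested further.

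Per1 encodes the period protein that answers fastest to light, neuronal activity and glucocorticoids. In PS mice, Per1 was at 2876, 3319, 3319 and 3684 normalized counts after saline and at 3645, 4107, 4118 and 4359 after DEX. In control mice it was at 3437, 3701, 3831 and 3881 after saline and at 3828, 4177, 4388 and 4861 after DEX. In AS mice it was at 3442, 3691, 3725 and 4169.7 after saline and at 3613, 4142, 4186 and 4404 after DEX. In each phenotype at least 1 DEX mouse lay within the range of the saline mice, so no pair of groups was separated. The log2 change of Per1 was 0.30 ± 0.08 in PS (1.23-fold, limma adjusted p = 0.0403), 0.21 ± 0.08 in controls (1.16-fold, adjusted p = 0.180) and 0.12 ± 0.08 in AS (1.09-fold, adjusted p = 0.497). On the mean of the phenotypes it was 0.21 ± 0.05 (adjusted p = 0.00331).

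The call of Per1 in PS rested on few animals. It was lost without PS-saline mouse 68 (adjusted p = 0.165), PS-DEX mouse 6 (0.103) or PS-DEX mouse 56 (0.124), and without the 5 libraries with olfactory bulb genes (0.154). In controls Per1 was called only when DEX-treated mouse 112 was left out (adjusted p = 0.0838, over the 24 libraries left out in turn). The rise on the mean of the phenotypes was kept with any 1 library left out, but with the striatum sum as a covariate the change of Per1 was 0.11 on the mean (adjusted p = 0.510), 0.22 in PS (adjusted p = 0.258) and -0.0062 in AS (adjusted p = 0.988). With the microglia sum it was 0.40 in PS (adjusted p = 0.0709).

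Per2 and Per3, the other period genes, did not pass the test after DEX in any phenotype. Per2 differed by 0.20 ± 0.13, 0.14 ± 0.13 and 0.02 ± 0.13 in control, PS and AS mice. Per3 was at 1716, 1896, 2099 and 2196 normalized counts in saline-treated controls and at 2340.1, 2422, 2464 and 2760.4 in DEX-treated controls, which did not overlap. That log2 difference of Per3 was 0.34 ± 0.13 (1.27-fold, limma adjusted p = 0.158), against 0.08 ± 0.13 in PS and -0.03 ± 0.13 in AS. It was called without PS-DEX mouse 34 (adjusted p = 0.0933) and in a fit of the 2 control groups alone (adjusted p = 0.0464). Groups that do not overlap were found for 1 of 10 members in controls (Per3, 10.1% of all genes), 2 in PS (Dbp and Cry2, 10.1%) and 1 in AS (Dbp, 9.02%), so these counts are near the background.

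Of the cryptochromes, the other arm of the repressor complex, Cry2 moved by a small amount. Its 4 DEX values in PS mice (4930.5, 4933, 5018 and 5133) lay above the 4 saline values (4625, 4634, 4656 and 4851), a log2 difference of 0.09 ± 0.06 (adjusted p = 0.523). On the mean of the 3 phenotypes, Cry2 rose by 0.08 ± 0.03 (1.06-fold, limma adjusted p = 0.0973). This call lay just inside the threshold and was lost in 19 of the 24 fits with 1 library left out (adjusted p up to 0.182), with edgeR (0.118), with TMM scaling (0.111) and with library size as a covariate (0.112). Cry1, the lowest member in reads, changed by 0.07 ± 0.11, 0.01 ± 0.11 and 0.08 ± 0.11 in control, PS and AS mice, and its group means lay between 424 and 458.

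The activators and the REV-ERB repressors did not pass the test in limma without covariates. Arntl was higher after DEX by 0.11 ± 0.11, 0.17 ± 0.11 and 0.20 ± 0.11 in control, PS and AS mice. On the mean it was higher by 0.16 ± 0.06, just outside the threshold (limma adjusted p = 0.104), and DESeq2 called it, as did the fits limited to genes with a mean of at least 100 or with 10 reads in each library. Clock, its partner, differed by 0.09 ± 0.13, 0.00 ± 0.13 and 0.16 ± 0.13. Nr1d1 differed by -0.10 ± 0.11, 0.08 ± 0.11 and 0.07 ± 0.11, and in AS mice it was at 4478, 5388, 5537 and 7721 after DEX, where mouse 72 stood far above the rest. With the striatum covariate Nr1d1 was called in controls (-0.39, adjusted p = 0.0657) and on the mean (-0.28, adjusted p = 0.0466). Nr1d2 differed by 0.03 ± 0.08, -0.14 ± 0.08 and -0.02 ± 0.08. The 95% confidence intervals of Arntl, Clock, Nr1d1 and Nr1d2 include 0 in every phenotype. They reach up to 0.42 for Arntl, 0.43 for Clock and 0.31 for Nr1d1, and down to -0.31 for Nr1d2, and so cover sizes as large as that of Dbp in controls.

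**Figure D2:**
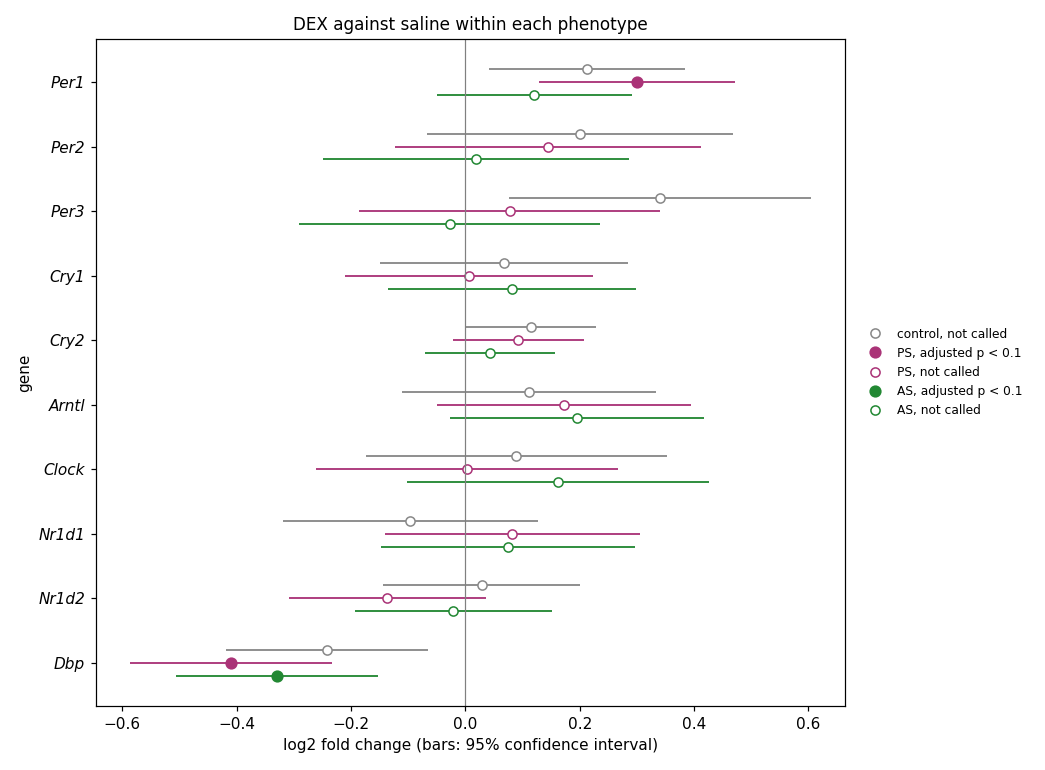
Log2 fold change of each clock gene (horizontal axis) after DEX against saline in control (grey), PS (purple) and AS (green) mice, with bars for the 95% confidence interval and filled points for an adjusted p below 0.1. Dbp lies left of 0 in all 3 phenotypes, from -0.24 to -0.41, and Per1 right of 0, from 0.12 to 0.30.

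The second question was whether the phenotypes differed in their DEX response, tested as the difference between the responses of 2 phenotypes. No member was called, beside 0% of all genes for PS minus control, 0.348% for AS minus control and 0% for AS minus PS. With limma, 0 of the 10 members had an unadjusted p below 0.05 in any of the 3, and edgeR and DESeq2 also called 0. Over all 14074 genes, 1404, 1902 and 344 had such a p in these 3 comparisons. The response of Dbp differed by -0.17 ± 0.12 between PS and controls (adjusted p = 0.688) and by -0.09 ± 0.12 between AS and controls (adjusted p = 0.821). That of Per1 differed by 0.09 ± 0.12 between PS and controls, by -0.09 ± 0.12 between AS and controls and by -0.18 ± 0.12 between AS and PS (95% confidence interval -0.42 to 0.06), so a difference of Per1 between phenotypes was not shown, and the intervals leave room for one. The widest difference was that of Per3, -0.37 ± 0.18 for AS minus control (95% confidence interval -0.74 to 0.00, adjusted p = 0.378).

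The third question was whether chronic defeat altered the clock genes of the PFC without DEX. No member was called between PS and control mice (1.51% of all genes called), AS and control mice (0.156%) or AS and PS mice (0%) after saline. edgeR and DESeq2 also called 0 of the 10 in each. With limma, 0 members had an unadjusted p below 0.05 for AS against control, 2 for AS against PS (Per1 and Dbp) and 2 for PS against control. Over all 14074 genes, 1548, 671 and 1850 had such a p in these comparisons. Nr1d1 was at 5164, 5393, 5656 and 6208 normalized counts in controls and at 4181, 4741, 4787 and 5334 in PS mice, a log2 difference of -0.24 ± 0.11 (limma adjusted p = 0.343) with overlapping groups. Per1 differed by -0.17 ± 0.08 (adjusted p = 0.372). For AS against control, log2 differences ran from -0.17 (Clock) to 0.10 (Dbp), and the 95% intervals of all 10 lay within -0.44 and 0.29. Dbp was higher in AS than in PS mice after saline, with no overlap (4022 or more against 3992 or less). Its log2 difference was 0.23 ± 0.09 (limma adjusted p = 0.934). In that comparison 1 of 10 members did not overlap, beside 5.22% of all genes.

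After DEX, stressed and control mice were also compared, and these comparisons share the 4 control-DEX libraries. No member was called between PS and control (0.199% of all genes), AS and control (0.867%) or AS and PS mice (0%). With limma, an unadjusted p below 0.05 was reached by 2 members for PS against control (Per3 and Dbp). It was reached by 1 for AS against control (Per3) and 1 for AS against PS (Dbp), and edgeR called 0 in each. Over all 14074 genes, 1975, 1891 and 580 had such a p. Per3 was at 1538, 2031, 2177 and 2273.5 in DEX-treated PS mice and at 1760.2, 1796, 2077 and 2273.0 in DEX-treated AS mice, all below the 4 DEX-treated controls (2340.1 or more). Its log2 differences from controls were -0.33 ± 0.13 (limma adjusted p = 0.266) and -0.34 ± 0.13 (adjusted p = 0.242). Dbp after DEX was lower in PS than in control mice with no overlap (-0.30 ± 0.09, adjusted p = 0.149). DESeq2 called that difference of Dbp (adjusted p = 0.0769), and the difference between AS and control mice was 0.01 ± 0.09. Between DEX-treated PS and control mice, 2 members did not overlap (Per3 and Dbp), beside 7.26% of all genes. Between DEX-treated AS and control mice, 1 did not overlap (Per3), beside 7.09% of all genes.

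**Figure D3:**
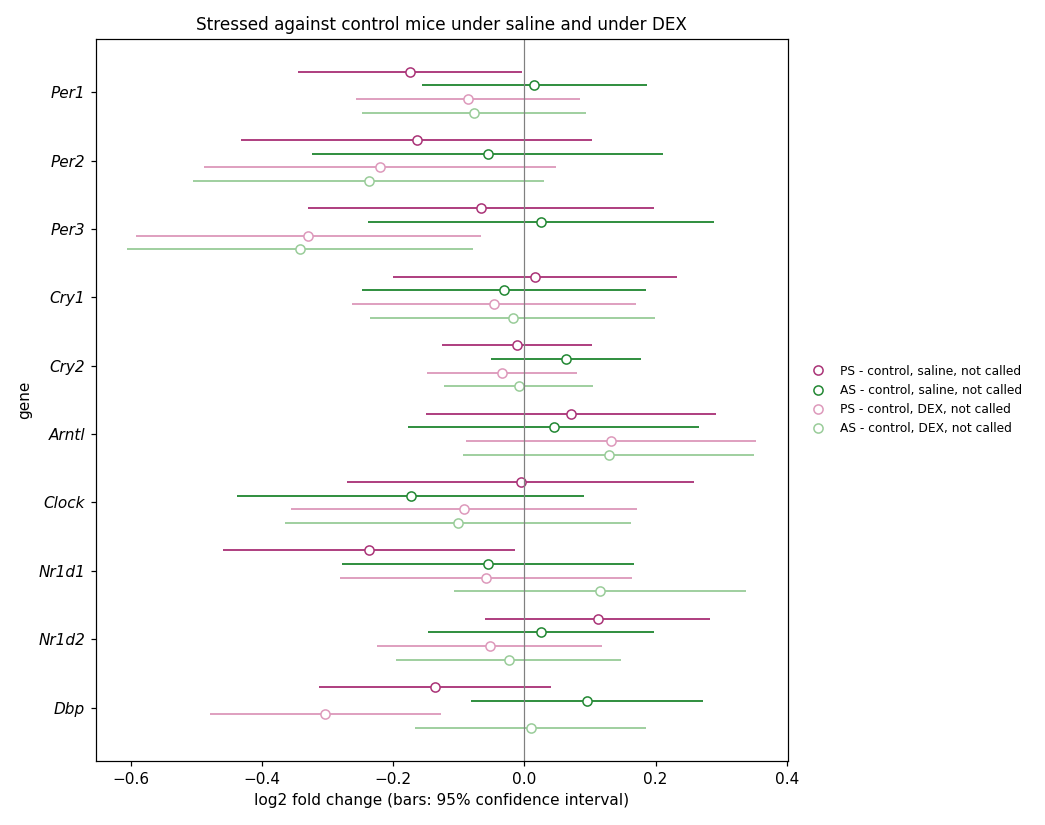
Log2 fold change of each clock gene (horizontal axis) in PS (purple) and AS (green) mice against controls, in dark shades after saline and in pale shades after DEX, with bars for the 95% confidence interval. All points are open because no member was called, and the widest values are those of Per3 and of Dbp in PS mice after DEX.

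Around the core loop, 23 of 26 listed clock-related genes were in the table, in 5 groups of partners and activators, PAR bZIP factors with their repressor, other repressors, regulators of clock proteins, and outputs and entrainment genes. After DEX, 3 of 23 rose and 0 fell in controls, where 4.03% of all genes rose and 2.46% fell. In PS mice 1 rose and 1 fell (2.74% and 2.62% of all genes), and in AS mice 2 rose and 1 fell (3.82% and 4.95%). On the mean of the phenotypes, 4 rose and 1 fell (7.46% and 8.01%). None of the partners and activators (Npas2, Arntl2, Rora and Rorb) was called. Median log2 changes over the 23 genes were 0.03, 0.04 and 0.08 in control, PS and AS mice.

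Rasd1, a small GTPase first described as induced by dexamethasone and involved in entrainment, rose in all 3 phenotypes. It was at 63.4 to 86.4 normalized counts in saline-treated and 145 to 206 in DEX-treated controls, at 68.3 to 90.8 and 130 to 206 in PS mice, and at 67.8 to 90.1 and 123 to 227 in AS mice, with no overlap. Its log2 changes were 1.29 ± 0.17, 1.09 ± 0.17 and 0.98 ± 0.17 (limma adjusted p = 1.85e-05, 0.000205 and 0.000589). With the striatum covariate the change of Rasd1 was 0.32 in AS (adjusted p = 0.272), 0.78 in controls (adjusted p = 0.00442), 0.69 in PS and 0.60 on the mean (adjusted p = 0.00212), and it was called in controls and PS mice.

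Hlf, a PAR bZIP activator like Dbp, went the other way from Dbp. Hlf rose in controls (0.27 ± 0.08, limma adjusted p = 0.0642) and AS mice (0.43 ± 0.08, adjusted p = 0.00212), and by 0.31 ± 0.05 on the mean (adjusted p = 4.03e-05). In PS mice its difference was 0.24 ± 0.08 (adjusted p = 0.122), and DEX and saline mice did not overlap in any phenotype. Tef, the third PAR bZIP gene, and Nfil3, the repressor at D-boxes, were not called. With the striatum covariate the change of Hlf was 0.23 on the mean (adjusted p = 0.120), and with the microglia covariate it was 0.35 in AS (adjusted p = 0.243).

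Bhlhe41 (Dec2), a repressor at E-boxes, fell as Dbp did, in PS (-0.33 ± 0.08, limma adjusted p = 0.011) and AS mice (-0.24 ± 0.08, adjusted p = 0.0654). In controls its difference was -0.22 ± 0.07 (adjusted p = 0.115). On the mean of the phenotypes it fell by 0.26 on the log2 scale (adjusted p = 0.000128). Its near relative Bhlhe40 was not called. Ciart (Chrono), another repressor of the ARNTL and CLOCK pair, rose in controls (0.42 ± 0.12, adjusted p = 0.0496) and on the mean (0.34 ± 0.07, adjusted p = 0.0013). Usp2, which removes ubiquitin from clock proteins, rose on the mean by 0.15 ± 0.04 (adjusted p = 0.0195).

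Some of these calls rested on few animals or moved with marker sums, which themselves differed after DEX. Among fits with 1 library left out, Hlf in controls was lost in 6 of 24 (adjusted p up to 0.168), Ciart in controls in 4 (up to 0.163) and Bhlhe41 in AS in 4 (up to 0.214). Those libraries were the control-saline mice 106, 107 and 117 and control-DEX mice 108, 112 and 122 for Hlf, control-saline mouse 107 and control-DEX mice 101, 108 and 112 for Ciart, and AS-saline mice 14 and 40 and AS-DEX mice 42 and 72 for Bhlhe41. Bhlhe41 in PS was lost with the microglia covariate (-0.27, adjusted p = 0.209). In AS it was lost with that covariate (-0.18, adjusted p = 0.662), the striatum covariate (0.169), without the 5 olfactory bulb libraries (0.198) and in a fit of the 2 AS groups alone (0.152), and on the mean Bhlhe41 was called in all of these. With the striatum covariate, Ciart on the mean was at 0.12 (adjusted p = 0.632) and Usp2 at -0.011 (adjusted p = 0.949).

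**Figure D4:**
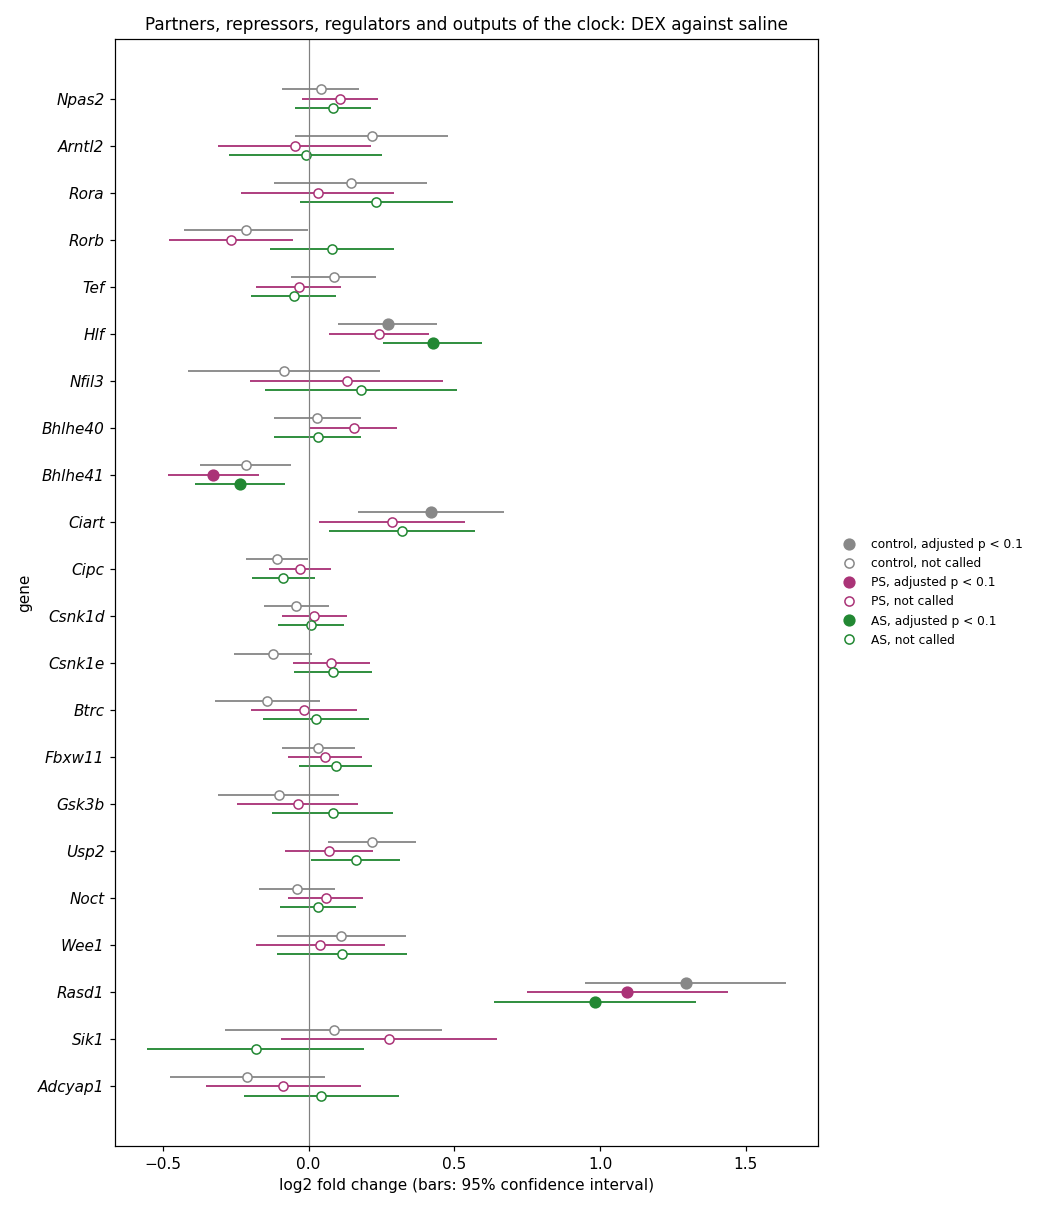
Log2 fold change (horizontal axis) after DEX against saline for clock-related genes in control (grey), PS (purple) and AS (green) mice, with bars for the 95% confidence interval and filled points for an adjusted p below 0.1. Rasd1 lies farthest right at 0.98 to 1.29, Hlf and Ciart lie right of 0, and Bhlhe41 lies left of 0.

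Per1 is also induced by neuronal activity, so 10 immediate early genes were set beside it. In PS mice, the only phenotype in which Per1 was called, 5 of 10 rose (Arc, Nr4a1, Dusp1, Ier2 and Junb), beside 2.74% of all genes, and the median log2 change of the 10 was 0.51. In AS mice 1 rose (Arc), beside 3.82% of all genes, with a median of 0.19. In controls 0 rose with limma, beside 4.03% of all genes, and the median was -0.04. There 0 of the 10 had an unadjusted p below 0.05, beside 2154 of the 14074 genes. The call of Junb in PS was lost in 9 of 24 fits with 1 library left out, that of Ier2 in PS without PS-saline mouse 2 (adjusted p = 0.113) and that of Arc in AS without AS-saline mouse 40 (adjusted p = 0.111). Arc, a marker of recent synaptic activity, rose by 1.33 ± 0.21 in PS mice (limma adjusted p = 0.00023) and by 0.79 ± 0.21 in AS mice (adjusted p = 0.0213). Without the 5 libraries with olfactory bulb genes, Junb, Ier2 and Dusp1 were not called in PS. With the striatum covariate, Junb, Ier2 and Nr4a1 in PS and Arc in AS were not called. With the endothelial covariate, Junb in PS and Arc in AS were lost. Arc in PS kept its call in all these fits. After saline, 1 of the 10 was higher in PS than in control mice, with a median log2 difference of -0.21, and 0 were called. None of the 10 differed between phenotypes in its DEX response by the test of that difference. Their part in the rise of Per1 was not tested.

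Beyond the groups, 3 of 45 pairs of members were correlated from mouse to mouse. How often pairs of other genes are so correlated in these libraries was not computed. Deviations of log2 levels from the group means were correlated over the 24 libraries for 45 pairs of members, with permutation within groups and Benjamini-Hochberg adjustment. An adjusted p below 0.05 was reached by 3 pairs. Clock and Dbp were inversely related, with r = -0.795 and rho = -0.757 (permutation p = 5e-05, adjusted p = 0.00225), and r was -0.725 without the 2 libraries farthest from the median. Clock and Nr1d2 moved together (r = 0.792, rho = 0.744, permutation adjusted p = 0.00653, 0.666 without those 2), and so did Per2 and Per3 (r = 0.707, rho = 0.663, permutation adjusted p = 0.00855, 0.615 without those 2). ARNTL and CLOCK act together, yet Arntl and Clock had r = 0.34, which was not called.

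Some members also moved with the length of transcripts over the libraries. The share of all genes that do so was not computed. A transcript length score was computed for each library, the mean log2 level of the 1201 genes with the longest exons (10.2 kb or more) minus that of the 1201 with the shortest (1.91 kb or less), with the 10 members left out. The score ran from -0.517 (AS-DEX mouse 60) to 0.264 (control-saline mouse 109) and its ranges overlapped between all 6 groups. Clock, whose exons sum to 13.7 kb, followed it with r = 0.935, and Dbp, at 2.99 kb, ran against it with r = -0.740 (rho = 0.929 and -0.780, permutation adjusted p = 0.0001, the smallest that the permutations can give over 10 tests, and 0.0003). Nr1d2 (r = 0.713), Per3 (r = 0.638) and Cry2 (r = 0.609) followed it as well, and rho for Cry2 was 0.357 (adjusted p = 0.181). Per2 (r = 0.453, rho = 0.255, permutation adjusted p = 0.0958) and Arntl (r = 0.272, rho = 0.408, adjusted p = 0.373) did not pass.

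With the score removed from each gene, a step chosen after seeing the data, none of the 3 pairs passed. Clock and Dbp were then at r = -0.433 (rho = -0.481, permutation adjusted p = 0.380), Clock and Nr1d2 at r = 0.504 (rho = 0.317, adjusted p = 0.312) and Per2 and Per3 at r = 0.610 (rho = 0.562, adjusted p = 0.0981). Nr1d1 and Dbp, both driven through E-boxes, passed instead at r = 0.681 (rho = 0.707, permutation adjusted p = 0.00585), having been at r = 0.579 (adjusted p = 0.179) before. Without the 5 libraries with olfactory bulb genes, Clock and Dbp alone passed (r = -0.824, rho = -0.784, permutation adjusted p = 0.00405).

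**Figure D5:**
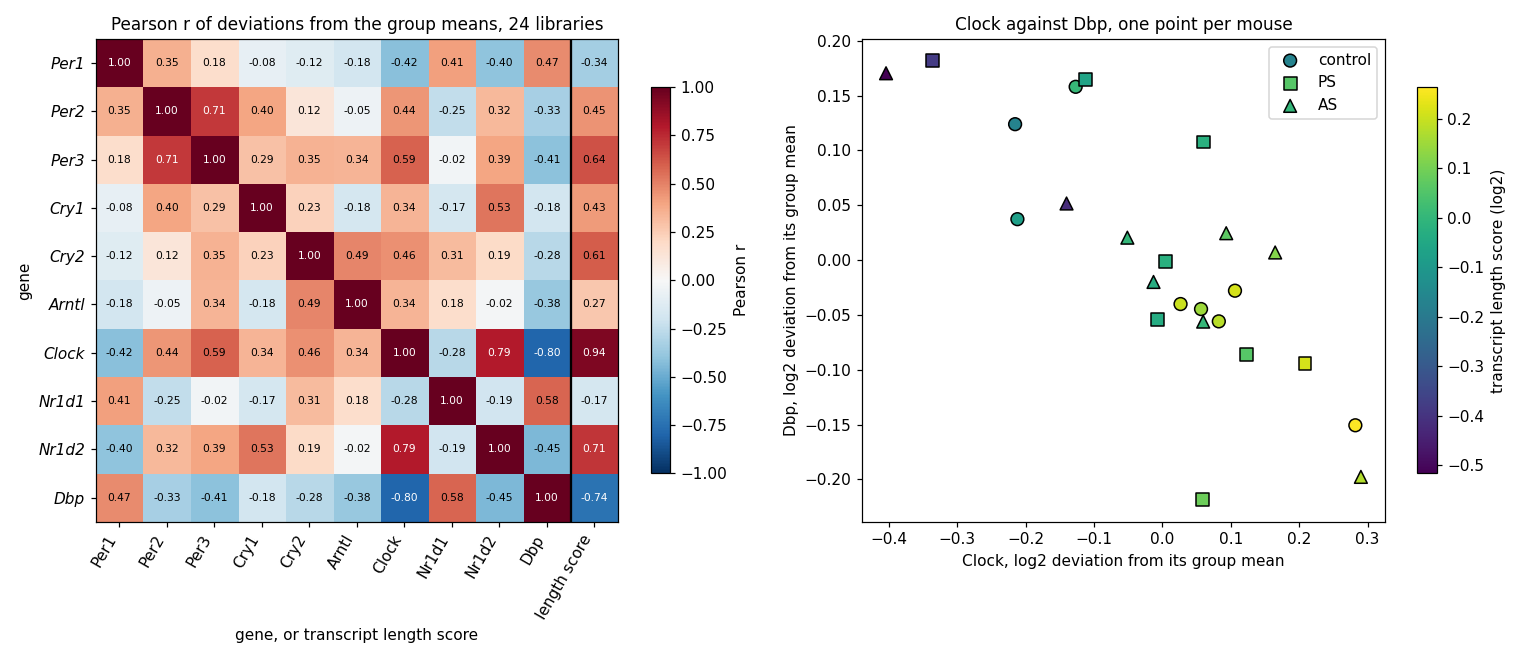
Left, Pearson r between deviations of the clock genes from their group means over 24 libraries, with the transcript length score as the last column. Right, the deviation of Dbp (vertical, log2) against that of Clock (horizontal, log2), one point per mouse (circles control, squares PS, triangles AS), coloured by the length score, with r = -0.795.

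The DEX comparisons were then fitted with the same score as a covariate. Dbp was called in all 3 phenotypes and on the mean, and in controls its adjusted p was 0.0158 at a log2 change of -0.23. Dbp was also called between PS and control mice after saline and after DEX (-0.36 and adjusted p = 0.0136 after DEX) and between AS and PS mice after DEX (0.30, adjusted p = 0.0735). Per3 and Per1 were called in controls (adjusted p = 0.0427 and 0.0834). More genes of all kinds were called with this covariate, 1769 in controls against 913 without it, and the score was built from these same libraries.

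Outside the clock, the genes most like each member over the 24 libraries, with no group removed, were ranked by Pearson r as a description, over genes whose mean reached 100. Bhlhe41 was the second for Dbp (r = 0.863), between B4galt3 (0.868) and S100a16 (0.857). Per3 was the second for Per2 (r = 0.781), after Hip1 (0.803). Those for Clock were Usp34, Dmxl1 and Braf (r = 0.967, 0.960 and 0.947), and those for Per1 were Tob2, Pde9a and Ucp2 (0.848, 0.825 and 0.823). The closest was Phka2 for Per3 (0.900), Kpna4 for Nr1d2 (0.881), Fut11 for Cry1 (0.823), Scn3b for Cry2 (0.796), 1810055G02Rik for Nr1d1 (0.777) and Stim2 for Arntl (0.736). These libraries share depth, dissection and the length score, which the ranking does not take apart.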

How the data were processed

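PFC libraries from 24 male mice were used, in 6 groups of 4 given by the library labels, with no pairing. Per the labels and the study's methods, the authors prepared strand-specific poly(A) libraries, trimmed reads with fastp 0.20.1, aligned them to mm10 with HISAT2 2.2.1, assigned them to genes of the GENCODE mouse annotation with featureCounts (Subread 2.0) and divided counts by DESeq2 1.36.0 size factors. The strand setting of the counting is not given in the sources used here. How reads in the bases shared with an antisense neighbour were assigned is therefore not known. The deposited signal values are these normalized counts. Gene coordinates came from a deposited table. The authors' own fold changes and p-values were not used.

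Each deposited value was a whole multiple of the value of 1 read within 0.01 read, for 100% of values, and the recovered reads ran from 21121869 to 59439645 per library. The main test was limma-trend (limma 3.58.1, R 4.3.3). Values entered as log2(normalized count + 1), and a single fit of group means covered 14074 genes and 24 libraries. Fold changes on that scale understate changes of low genes. Genes with a Benjamini-Hochberg adjusted p below 0.1 were called. Counts of replicates of one group differed by more than sampling noise (chi-square per gene 5.68 to 80.9), and the labels name separate mice. The spread is that between mice.

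Alternatives were a pseudocount of 8, a mean of at least 100, 10 reads in each library, quantile and TMM scaling, only the groups compared, library size as a covariate, edgeR 4.0.16 and DESeq2 1.42.0 on recovered reads, and each library left out. edgeR called 862, 763 and 1330 genes after DEX in control, PS and AS mice. Covariates for marker sums and transcript length, and the fit without 5 libraries, were chosen after seeing the data. The models were tested on simulated counts. Results for a few listed genes are not reported here. Correlations used 100000 permutations within groups (numpy 2.4.6, scipy 1.17.1). The 10 genes and all lists were chosen with earlier results of these data known, and the genes named were the 10 members, related and early genes that were called (with their near relatives), 3 checks of DEX, marker genes of other cells, overlapping genes, and the 3 genes most like each member.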

Additional observations from a re-analysis of the deposited data

Results flagged for a closer look

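In 3 of 60 sets of 4 mice (10 genes in 6 groups), 1 mouse stood apart from the other 3, its gap to the nearest being larger, as a share of the whole range, than the 95% critical value of Dixon's test. Chance flags about 1 in 20 such sets. Dbp in DEX-treated controls was at 3603 in mouse 101 and at 3181 to 3243 in the other 3 mice. Cry2 in the same group was at 4876 in the same mouse and at 5186 to 5234 in the others. This library had a transcript length score of -0.168, against 0.179 to 0.214 in the other 3 of its group, and the part of that in both values was not tested. Without mouse 101, the log2 change of Dbp after DEX in controls was -0.28 (limma adjusted p = 0.108). Cry2 in saline-treated PS mice was at 4851 in mouse 68 and at 4625 to 4656 in the others.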

How the results depend on the processing

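No paired analysis was possible because mouse numbers do not recur between groups. Over the 24 fits that each leave out 1 library, the number of members called was 0 in all comparisons of stress or of DEX responses. It ranged from 0 to 2 for DEX in controls, 1 to 2 in PS, 0 to 1 in AS and 2 to 4 on the mean of the phenotypes. Among other scalings, filters and tests, the number in controls was 1 with only the groups compared (Per3) and 1 with DESeq2 (Dbp), and DESeq2 called 1 between PS and control mice after DEX (Dbp). The others kept each count within 1.5 times.

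Among alternatives chosen after seeing the data, the length score covariate gave 1 member for PS against control after saline (1130 of 14074 genes called), 3 for DEX in controls (1769 genes), 5 on the mean of the phenotypes (Dbp, Per1, Cry2, Arntl and Clock, beside 3125 genes), and 1 each for PS against control (326 genes) and AS against PS (8 genes) after DEX. The striatum covariate gave 2 in controls (Dbp and Nr1d1) and 1 in PS (Dbp), the microglia covariate 1 in controls, 1 in PS and 0 in AS, and the endothelial covariate 0 in AS. Without the 5 olfactory bulb libraries, 1 was called in PS. The causes were not tested, and a marker sum that differs between saline and DEX mice takes up part of the DEX difference. Under the striatum covariate, Per1 in AS (-0.0062, adjusted p = 0.988), Usp2 on the mean (-0.0111, 0.949) and Junb on the mean (-0.0106, 0.982) changed sign (limma). Of the 45 pairs, 1 passed without the 5 libraries and 1 with the length score removed, against 3. No scaling moved the median of all genes by over 0.1. With 4 mice a group, standard errors of a single log2 change were 0.055 for Cry2 to 0.13 for Per2. Changes of that size could not be told from 0. Larger ones were not always called, such as -0.24 for Dbp and 0.34 for Per3 in controls.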
